A study of Mus musculus with 8 samples.

Results

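Keratins were followed in mouse intestinal organoids that carry a mutated Apc, with and without TGF-beta. The members are 10 named genes, Krt7, Krt8, Krt18, Krt19, Krt20, Krt23, Krt14, Krt17, Krt10 and Krt4, taken by symbol from the platform annotation with all their probes. They are 10 of 19057 genes that the annotation names on the array, and they have 11 of its 45281 probes. All 10 had a probe that passed the filter on low signal, a detection p under 0.05 on at least 4 of the 8 arrays. A second Krt8 probe was detected on 0 arrays and was not tested. The genes were chosen as members with earlier results of these data known.

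The organoids, 3-dimensional epithelial cultures, came from mice on a C57Bl background aged 3-4 months. All 8 samples were Apc-mutated and had received tamoxifen, with the growth factors taken out of the medium afterwards, and none had intact Apc. Of these, 4 were left untreated and 4 were given TGF-beta, 3 ng/ml for 18 h, each sample on 1 Illumina array. The recombinase that tamoxifen acts on, its promoter, and whether the samples of a group came from separate cultures or animals, are not stated in the labels. The p-values therefore reflect the spread between these 8 samples alone. Part of that spread is a difference between sets of replicates, described below, and the rest may be technical.

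Keratins are the intermediate filament proteins of epithelial cells. A type I and a type II keratin pair to build the filament, which is anchored at desmosomes and hemidesmosomes and carries mechanical load. Simple epithelia such as the gut lining use the type II keratin Krt8 with the type I keratins Krt18 and Krt19, and differentiated cells of the villus and the colon surface add Krt20. Stratified epithelia use other pairs, such as Krt5 with Krt14 in the basal layer.

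The arrays detected between 14554 and 16626 probes, with TGF-beta replicate 2 the lowest. The X-linked transcript Xist averaged 4.58 in replicates 1 and 4 and 9.65 in replicates 2 and 3 on the log2 scale, and the Y-linked Eif2s3y averaged 8.33 and 4.58. This divides the samples into 2 sets that cross the treatment, with 2 arrays of each group in each set. The labels do not state the sex of the mice, and other differences between the sets cannot be told apart from it. Over all genes tested, 9.56% rose and 9.88% fell with TGF-beta. All 6 intestinal epithelial markers were tested, 4 rose with TGF-beta, among them Vil1 (+0.79) and Cdh1 (+0.97), and the transcription factor Cdx2 fell (-1.04). Epcam (+0.92) also rose, but it was detected on 0 untreated arrays, so only the 4 TGF-beta arrays brought it past the filter. Lgals4 (+0.62) rose too, and lost its call under median scaling (adjusted p = 0.18 in limma). The summed linear signal of the 6 markers ran from 15200 to 17500 in untreated and from 21100 to 24300 in TGF-beta samples. The part of this in the keratin rises was not tested. Of 8 mesenchymal and muscle markers, 6 were detected on 0 arrays, among them Col1a1, Col1a2 and Col3a1. Of the other 2, the muscle actin Acta2 averaged 5.21 in untreated and 5.91 in TGF-beta samples (+0.70, adjusted p = 0.17), detected on 3 and 4 arrays. Further tested Acta2 probes gave -0.08 and +0.04 (adjusted p = 0.8 and 0.91 in limma). Desmin, Des, was detected on 0 untreated and 3 TGF-beta arrays and was not tested. None of 3 endothelial markers passed the filter, and of 4 leukocyte markers with a probe only Cd3e did, at 5.37 in untreated and 5.61 in TGF-beta samples. The lowest detected signals of the arrays were 5.04 to 5.23.

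With TGF-beta, 6 of the 10 keratins rose and 0 fell. Those that rose were the simple keratins Krt8, Krt18, Krt19 and Krt7, the differentiation keratin Krt20 and the basal keratin Krt14. Krt23, Krt17, Krt10 and Krt4 did not pass the test. Among all 9062 genes tested, 9.56% rose and 9.88% fell, 19.4% in all (limma, adjusted p under 0.05 after Benjamini-Hochberg adjustment over 15573 probes). At an unadjusted p under 0.05, 7 keratins were higher and 0 lower. The median log2 difference of the 10 keratins was 1.23, beside -0.05 over all genes. In 6 of them the 4 untreated values did not overlap the 4 TGF-beta values, which held for 24.8% of all genes. The calls above come from the fit by group, which ignores the replicate numbers. With the replicate number as a block the same 6 keratins rose and 1, Krt4, fell, beside 1302 genes that rose and 1571 that fell. In such bulk RNA, more cells of a type and more keratin RNA per cell cannot be told apart.

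**Figure D1:**
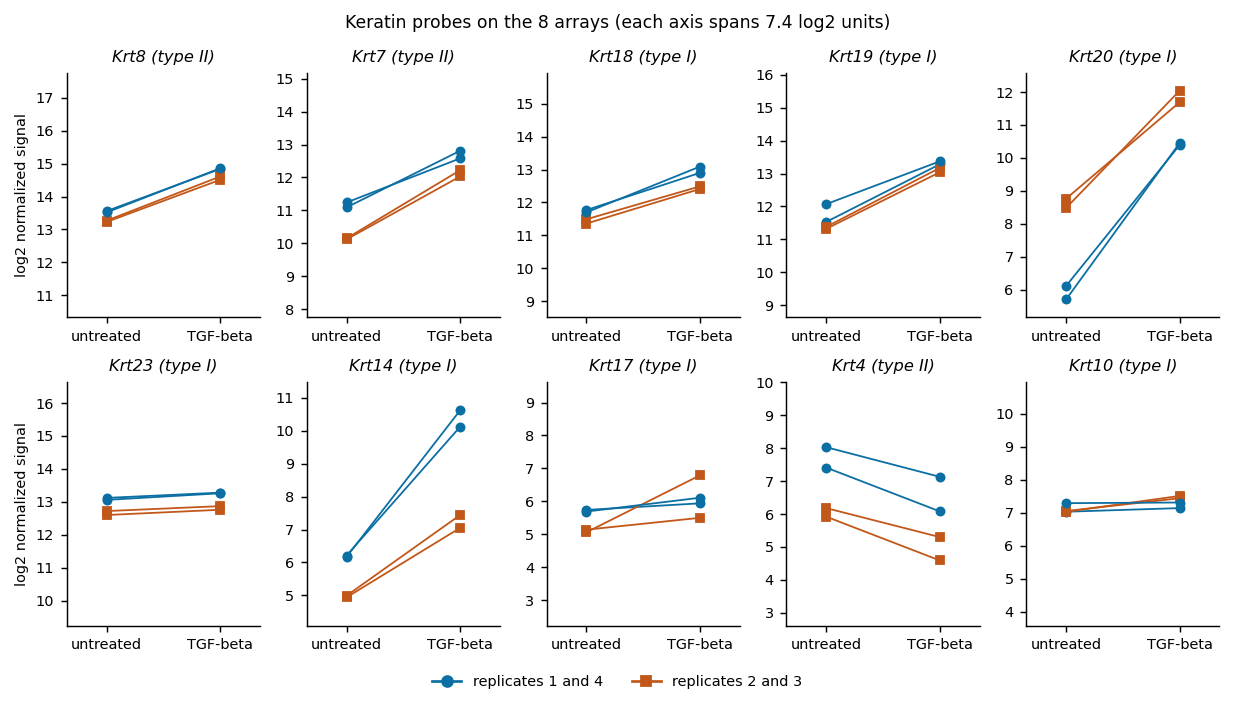
Log2 normalized signal of the main probe of each keratin on the 8 arrays, with untreated on the left and TGF-beta on the right of each panel. Lines join samples with the same replicate number, circles are replicates 1 and 4 and squares replicates 2 and 3. Every axis spans the same number of log2 units. Krt8, Krt18, Krt19 and Krt7 rose in all 4 numbered pairs, Krt20 and Krt14 rose from levels that differed between the sets, and Krt4 was lower in all 4 pairs.

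Krt8, the main type II keratin of simple epithelium, gave 13.56, 13.23, 13.27 and 13.52 in untreated replicates 1 to 4 and 14.84, 14.51, 14.61 and 14.86 in the TGF-beta replicates (log2 normalized signal). The 4 TGF-beta values lay close together and all above the untreated ones. The mean went from 13.39 ± 0.17 to 14.71 ± 0.18 (SD, n = 4), a 2.48-fold rise (log2 difference 1.31, SE 0.15, adjusted p = 0.00031 in limma). The rise was the same in both sets, 1.31 in replicates 1 and 4 and 1.31 in replicates 2 and 3.

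Krt18, the usual type I partner of Krt8, gave 11.77, 11.49, 11.36 and 11.70 untreated and 12.90, 12.49, 12.41 and 13.09 with TGF-beta. Every TGF-beta value exceeded every untreated value, and replicates 1 and 4 were the highest within each group. It rose 2.21-fold, from 11.58 ± 0.19 to 12.72 ± 0.33 (SD, n = 4; log2 difference 1.14, SE 0.18, adjusted p = 0.0023).

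Krt19, the smallest keratin, which lacks most of the tail domain, gave 11.53, 11.38, 11.32 and 12.07 untreated and 13.28, 13.17, 13.04 and 13.37 with TGF-beta. The groups did not overlap, and untreated replicate 4 was the highest of its group. The rise was 3.11-fold, from 11.58 ± 0.34 to 13.21 ± 0.14 (SD, n = 4; log2 difference 1.64, SE 0.18, adjusted p = 0.00028).

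Krt7, a type II keratin best known from ducts and the bladder lining, gave 11.24, 10.12, 10.15 and 11.09 untreated and 12.58, 12.03, 12.22 and 12.81 with TGF-beta. Untreated replicates 2 and 3 lay about 1 log2 unit below replicates 1 and 4, and no TGF-beta value fell to the untreated range. It rose 3.39-fold, from 10.65 ± 0.60 to 12.41 ± 0.35 (SD, n = 4; log2 difference 1.76, SE 0.29, adjusted p = 0.0025).

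Krt18 is the type I gene that lies beside the type II genes, and in the RefSeq gene table of GRCm38 it directly neighbours Krt8 on chromosome 15. Krt7 and Krt4 are on the same chromosome, while Krt19, Krt20, Krt23, Krt14, Krt17 and Krt10 are on chromosome 11. RefSeq promoter sequence (GRCm38.p6) was matched by symbol for 7 of the 10 members and not for Krt19, Krt17 and Krt4. The 250 bases before the start are printed for the 5 matched members that rose, since all of them were higher with TGF-beta. Capitals mark matches on either strand to TATAAA, to CAGAC (the Smad-binding element), or to the GC-rich GGCGCC. The AP-1 motif TGANTCA and the Tcf motif CTTTGAT were searched in the same way, and none of these motifs contains another.
Krt8, chr15:102004343-102004592, minus strand:
Krt8: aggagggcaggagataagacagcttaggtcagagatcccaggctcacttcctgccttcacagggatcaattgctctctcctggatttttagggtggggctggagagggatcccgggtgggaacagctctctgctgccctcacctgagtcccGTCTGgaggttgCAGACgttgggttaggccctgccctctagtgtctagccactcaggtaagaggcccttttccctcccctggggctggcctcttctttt
Krt18, chr15:102027966-102028215, plus strand:
Krt18: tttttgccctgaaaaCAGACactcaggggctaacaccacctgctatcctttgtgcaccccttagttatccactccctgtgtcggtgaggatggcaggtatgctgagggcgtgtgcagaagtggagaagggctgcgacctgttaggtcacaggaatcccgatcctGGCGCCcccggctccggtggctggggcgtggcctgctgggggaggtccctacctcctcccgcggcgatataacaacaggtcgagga
Krt7, chr15:101412153-101412402, plus strand:
Krt7: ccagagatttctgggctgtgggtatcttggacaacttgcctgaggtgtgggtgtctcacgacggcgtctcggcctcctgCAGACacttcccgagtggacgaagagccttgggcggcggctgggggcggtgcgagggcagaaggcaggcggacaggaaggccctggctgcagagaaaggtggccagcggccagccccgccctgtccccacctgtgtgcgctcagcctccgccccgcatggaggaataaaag
Krt20, chr11:99438154-99438403, minus strand:
Krt20: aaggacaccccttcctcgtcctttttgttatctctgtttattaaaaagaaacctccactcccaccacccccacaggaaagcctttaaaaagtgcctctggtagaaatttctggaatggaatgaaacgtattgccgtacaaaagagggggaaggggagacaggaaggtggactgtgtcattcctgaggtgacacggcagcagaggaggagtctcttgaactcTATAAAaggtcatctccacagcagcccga
Krt14, chr11:100206031-100206280, minus strand:
Krt14: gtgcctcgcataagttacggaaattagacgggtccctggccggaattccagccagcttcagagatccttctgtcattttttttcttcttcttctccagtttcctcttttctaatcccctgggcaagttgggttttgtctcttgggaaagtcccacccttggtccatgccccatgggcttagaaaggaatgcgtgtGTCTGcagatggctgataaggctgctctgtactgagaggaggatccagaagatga

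CAGAC was present in 5 of the 7 matched promoters, in those of Krt8, Krt7, Krt18 and Krt14, which rose, and of Krt23, which did not pass. Across 32851 RefSeq promoters 42.2% hold it in the same window. It occurred at 2 places in Krt8, its first base 99 and 87 bases before the start on opposite strands. The Krt20 window has TATAAA 29 bases before the start and no CAGAC, and that of Krt10 has TATAAA at 26 bases, a motif that 12.4% of promoters hold. The GC-rich motif was found once, in Krt18 (9.59% of promoters), and TGANTCA (6.75%) and CTTTGAT (3.21%) in 0 of the 7. A match is a description of these letters only.

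Krt20, the keratin of differentiated enterocytes and goblet cells, gave 5.70, 8.48, 8.76 and 6.11 untreated and 10.45, 12.04, 11.69 and 10.39 with TGF-beta. Untreated replicates 1 and 4 were near the low end of detection, replicates 2 and 3 far above them, and the same 2 sets kept this order with TGF-beta. The groups did not overlap, with all 8 arrays detecting the probe. It rose 14.7-fold, from 7.26 ± 1.58 to 11.14 ± 0.84 (SD, n = 4; log2 difference 3.88, SE 0.69, adjusted p = 0.0038). In a joint fit of both sets and both groups, the rise was 4.51 within replicates 1 and 4 and 3.24 within replicates 2 and 3. The SE was 0.21 each, from a variance that the sets share in this fit. The rises of the 2 sets differed by -1.27 (SE 0.29), which did not pass (interaction in limma, adjusted p = 0.22). Over all samples, leaving out untreated replicate 3 gave a log2 difference of 4.38, no background correction 2.92 and the fit on the authors' deposited values 3.01.

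Krt23, a less studied type I gene that neighbours Krt20, gave 13.06, 12.60, 12.72 and 13.12 untreated and 13.26, 12.76, 12.87 and 13.28 with TGF-beta. The groups overlapped, and replicates 1 and 4 were the highest in both. The difference was 0.17 (SE 0.18, adjusted p = 0.59), with a 95% interval from -0.24 to 0.57 on the log2 scale.

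Of the keratins of stratified epithelium, Krt14 rose. It gave 6.21, 4.94, 4.99 and 6.17 untreated, where replicates 2 and 3 were not detected, and 10.12, 7.05, 7.44 and 10.62 with TGF-beta, where all 4 were. Every TGF-beta value lay above every untreated value, and replicates 1 and 4 were higher than 2 and 3 in each group. The mean went from 5.58 ± 0.71 to 8.81 ± 1.82 (SD, n = 4; 9.40-fold, log2 difference 3.23, SE 0.75, adjusted p = 0.015). Without background correction the log2 difference was 1.84 and missed the threshold (adjusted p = 0.056). At an unchanged difference of 3.23 it missed it also when probes were not filtered (0.057) and when variances were trended and robust (0.061). Leaving out TGF-beta replicate 2 gave 3.82 and leaving out TGF-beta replicate 4 gave 2.63, both past the threshold. The rise was 4.18 within replicates 1 and 4 in the joint fit of the sets (SE 0.21). In replicates 2 and 3 neither untreated array was above background, so the rise there has only a bound, at least 4.51-fold (the 2 TGF-beta values averaged 7.25, against 5.07 when each untreated array is set to its lowest detected signal). The test of a difference between the sets missed the threshold (interaction, adjusted p = 0.055), and its size is not given because 1 side is a bound.

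Krt17, a type I keratin of hair follicles and wounded skin, gave 5.74, 5.06, 5.14 and 5.69 untreated and 5.94, 6.79, 5.50 and 6.11 with TGF-beta. The groups overlapped, and TGF-beta replicate 2, the array with the fewest detected probes, was the highest. The difference was 0.68 (SE 0.27, adjusted p = 0.11; 95% interval 0.08 to 1.28), and 0.44 without that sample (adjusted p = 0.24). Without background correction it was 0.22, and 0.24 from the authors' deposited values. All 8 arrays detected the probe, with TGF-beta replicate 2 at 6.79 where its lowest detected signal was 5.23, and the untreated values between 5.06 and 5.74.

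Krt4, a type II keratin of the oesophageal lining, gave 7.41, 5.92, 6.18 and 8.03 untreated and 6.08, 4.59, 5.30 and 7.13 with TGF-beta, with TGF-beta replicate 2 not detected. The groups overlapped because replicates 1 and 4 were higher than 2 and 3 in each, yet all 4 numbered pairs were lower with TGF-beta. Over all samples the difference was -1.11 (SE 0.58, adjusted p = 0.22). Its size varied, from -0.45 without background correction and -0.49 from the authors' deposited values to -0.73 on leaving out untreated replicate 4, -0.71 on leaving out TGF-beta replicate 2 and -1.56 on leaving out TGF-beta replicate 4. With the replicate number as a block the difference of -1.11 passed (SE 0.14, adjusted p = 0.00044), and with the set as a block as well (SE 0.24, adjusted p = 0.0043). Within the sets it was -1.11 in replicates 1 and 4 (adjusted p = 0.055) and -1.11 in replicates 2 and 3 (adjusted p = 0.049).

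Krt10, which pairs with Krt1 above the basal layer of the epidermis, gave 7.03, 7.03, 7.05 and 7.29 untreated and 7.14, 7.51, 7.44 and 7.31 with TGF-beta. The groups overlapped, and the difference was 0.25 (SE 0.14, adjusted p = 0.27; 95% interval -0.06 to 0.55).

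**Figure D2:**
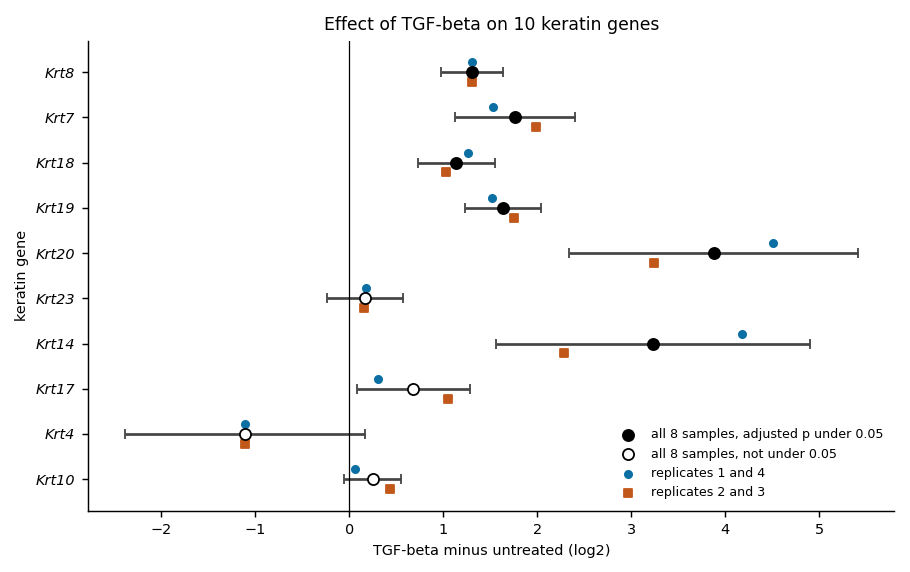
Log2 difference of TGF-beta minus untreated for each keratin, with black circles for all 8 samples and bars for the 95% interval of the limma fit. Filled circles passed at an adjusted p under 0.05, blue circles are the difference within replicates 1 and 4 and orange squares that within replicates 2 and 3. Krt20 and Krt14 have the widest separation between sets among those that rose, and the 2 set values of Krt4 coincide at -1.11. The orange square of Krt14 is set against untreated arrays that were not above background.

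The sets differed in several keratins before any TGF-beta. In untreated samples 4 of the 10 differed between replicates 2 and 3 and replicates 1 and 4, where 9.31% of all genes did. Krt20 was higher in replicates 2 and 3 by 2.71 (SE 0.21, adjusted p = 3.3e-05), and Krt4 (-1.67) and Krt7 (-1.03) were lower there, with adjusted p of 0.017 and 0.0054 in limma. Krt14, not above background on those 2 arrays, was at least 2.17-fold higher in replicates 1 and 4 (adjusted p = 0.006). With TGF-beta 3 of the 10 differed, beside 12.9% of genes. Krt20 was again higher (+1.44, adjusted p = 0.0019) and Krt14 (-3.12, adjusted p = 1.8e-05) and Krt4 (-1.66, adjusted p = 0.015) lower, while Krt7 gave -0.57 (adjusted p = 0.061). Each of these contrasts rests on 2 arrays a side.

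Inside replicates 1 and 4, TGF-beta raised Krt8, Krt7, Krt18, Krt19, Krt20 and Krt14, 6 of 10, beside 19.1% of genes that changed. Inside replicates 2 and 3 the same 6 rose together with Krt17 (+1.05, adjusted p = 0.045), and Krt4 fell, 8 of 10, beside 22.8% of genes. The effect itself differed between the sets for 0 of the 10 keratins and for 0.011% of all genes (limma interaction). At an unadjusted p under 0.05 it differed for Krt20 and Krt14.

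Since a type I and a type II chain pair in the filament, the change of each was compared with that of its possible partner on the same array, over 6 pairs. Signals of different probes cannot be set against each other. Their changes were compared instead, although the changes of low probes depend on the background correction. Krt8 rose by 0.17 more than Krt18 (exact two-sided permutation p = 0.143, adjusted over the 6 pairs 0.206) and by 0.33 less than Krt19, a difference of -0.33 (exact p = 0.114, adjusted 0.206). Krt7 exceeded Krt18 by 0.62, with all 4 TGF-beta arrays above the untreated ones (exact p = 0.0286, adjusted 0.0857), and Krt19 by 0.12 (exact p = 0.6). Against Krt20 the difference was -2.56 for Krt8 (exact p = 0.0286, adjusted 0.0857) and -2.12 for Krt7 (exact p = 0.171, adjusted 0.206). Without background correction it was -1.62 for Krt8 and -1.25 for Krt7, and from the authors' deposited values -1.71 and -1.32. None of the 6 passed after adjustment, and 0.0286 is the smallest p that 70 assignments of the samples allow. These assignments ignore the replicate numbers, so the difference between the sets enters the spread. Krt7 against Krt18 and Krt8 against Krt20 were at that smallest p and still had an adjusted p of 0.0857. With so few samples the adjusted test could hardly pass, so its misses do not show that partners changed alike. Within the numbered pairs Krt7 minus Krt18 was above 0 in 4 of 4 (0.21, 0.91, 1.01 and 0.33). Krt8 minus Krt20 was below 0 in 4 of 4 (-3.46, -2.28, -1.58 and -2.94), as was Krt7 minus Krt20 (-3.41, -1.65, -0.85 and -2.56). The other comparisons had 1 pair of opposite sign each. An exact test over the 16 sign flips within pairs, added after seeing the data, cannot go below 0.125, which those 3 reached (adjusted 0.25), so it could not pass.

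The genes whose centred values over the 8 arrays lay nearest to a keratin that rose were found among 9061 other genes by the root mean square difference. Krt8 lay nearest to Arhgef5 (0.09), Rin2 (0.10) and Prune2 (0.10), and Krt18 to Mst1r (0.10), Prnp (0.11) and Btc (0.11). Krt19 had Smox (0.11), Fos (0.12) and Errfi1 (0.17), and Krt7 had Tle6 (0.13), Samd5 (0.17) and Arhgef3 (0.18). The nearest to Krt14 were Emp3 (0.45), Prl2c2 (0.59) and Prss22 (0.70). Krt20 had no close match, with Rhob at 0.84, C2cd4a at 0.93 and Tmem253 at 0.97 log2 units. Between members, Krt8 and Krt18 were the nearest pair (0.14), before Krt8 and Krt19 (0.24).

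Partners of the stratified keratins were mostly below detection. Krt5, the partner of Krt14, Krt13, the partner of Krt4, and Krt6a, a partner of Krt17, were detected on 0 of 8 arrays. Krt1, the partner of Krt10, was detected on 1. Krt16, a type I keratin of wounded skin, was detected on 0 untreated and 3 TGF-beta arrays, as was a probe of Krt6b, and neither passed the filter. Probe sequences were not used here, so signal shared between the similar genes Krt14, Krt16 and Krt17 was not tested.

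Of 39 other keratin genes on the array, 22 were detected on 0 arrays and 5 passed the filter. Of these Krt79 rose and 0 fell (limma, 0 lower at an unadjusted p under 0.05), beside 9.56% and 9.88% of all genes. Krt79, a type II keratin of skin glands that neighbours Krt4, gave 5.51, 4.41, 4.61 and 4.57 untreated, where 1 array detected it, and 8.08, 6.08, 5.71 and 8.07 with TGF-beta, where all 4 did. As with Krt14, replicates 1 and 4 were the highest with TGF-beta. The log2 difference was 2.21 (SE 0.53, adjusted p = 0.017). Its size is uncertain because the other 3 untreated values were not above background, and with no detection filter it missed the threshold (adjusted p = 0.062). Krt12, which neighbours Krt20, gave 4.72, 5.16, 5.10 and 4.69 untreated and 5.03, 6.31, 5.99 and 5.09 with TGF-beta, highest in replicates 2 and 3 in both groups. Its difference of 0.69 did not pass (adjusted p = 0.13) but passed with the replicate block (adjusted p = 0.013). Only 1 untreated and 3 TGF-beta arrays detected Krt12, so the size of its difference is uncertain too.

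Of 8 listed markers of stratified epithelium, 3 were tested and 5 were detected on 0 arrays. Of the 3 tested, 2 rose with TGF-beta, beside 9.56% of all genes. Those that rose were Sprr1a, a cornified envelope precursor (+3.01, SE 0.26, adjusted p = 5.2e-05), and involucrin, Ivl (+1.5, SE 0.37, adjusted p = 0.020), with 2 and 1 of the untreated arrays detecting them. Leaving out untreated replicate 2 (adjusted p = 0.056), untreated replicate 3 (0.055) or TGF-beta replicate 4 (0.054) ended the call of Ivl, as did an unfiltered probe set (0.067). Loricrin, Lor, a cornified envelope protein, did not pass (+0.61, adjusted p = 0.63) but passed with the replicate block (adjusted p = 0.005). It gave 8.31, 6.53, 6.86 and 9.28 untreated and 8.96, 7.03, 7.42 and 10.01 with TGF-beta, highest in replicates 1 and 4. The undetected markers were Krt5, Krt6a, Krt13, Dsg3 and the basal regulator Trp63. The summed linear signal of the tested markers ran from 140 to 721 in untreated and from 383 to 1540 in TGF-beta samples, with Lor the brightest of the 3 on the arrays that set the upper ends. The part of a stratified cell type in the rise of Krt14 was not tested.

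Genes that anchor or organise keratin filaments rose in part. Of 17 listed genes 15 had a probe and 14 were tested. Desmoplakin, Dsp, and Eppk1 had no probe annotated to them alone. Jup, detected on 1 untreated and 2 TGF-beta arrays, did not pass the filter. Of the tested genes 7 rose and 0 fell (1 lower at an unadjusted p under 0.05), beside 9.56% and 9.88% of all genes. The median log2 difference of the tested linker genes was 0.52. The largest rise among them was that of Sfn, the 14-3-3 protein sigma, which binds keratin and other phosphoproteins. It gave 6.24, 5.74, 5.88 and 6.06 untreated and 9.45, 9.97, 9.71 and 9.20 with TGF-beta, far apart in all 4 pairs (log2 difference 3.60, SE 0.19, adjusted p = 3.5e-06). A second Sfn probe was detected on 0 arrays and was not tested.

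The desmosomal plaque proteins Pkp1 (+1.49, SE 0.13, adjusted p = 6.9e-05) and Pkp3 (+1.06, SE 0.14, adjusted p = 0.00068) rose, while Pkp2 gave 0.18 (adjusted p = 0.37). Plec, the linker that ties keratin to hemidesmosomes, rose by 1.44 (SE 0.17, adjusted p = 0.00036), and a second probe by 1.47. Its receptor at the membrane, Itgb4, rose by 0.93 (SE 0.24, adjusted p = 0.023), and a second probe by 1.23. Fam83h, which organises keratin filaments, rose by 0.91 (SE 0.15, adjusted p = 0.0025) and Dnajb6, a chaperone that binds Krt18, by 0.54 (SE 0.15, adjusted p = 0.032).

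The call of the main Itgb4 probe was lost on leaving out untreated replicate 2 or 3, or TGF-beta replicate 1 or 4 (adjusted p between 0.056 and 0.064). It was also lost without a filter (0.059) and under median scaling (0.067). The second Itgb4 probe passed in the main fit (adjusted p = 0.0025). The call of the main Dnajb6 probe was lost on leaving out any single sample other than untreated replicate 4 and TGF-beta replicate 1 (adjusted p between 0.059 and 0.087). It was also lost within either set in the joint fit (0.088 and 0.099) and under median scaling (0.27). Further tested Dnajb6 probes passed in the main fit (adjusted p = 0.04 and 0.02). With the replicate block Itga6, the partner of Itgb4, passed as well (+0.46, adjusted p = 0.020, against 0.087 without it).

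Among other intermediate filament genes, 5 of 15 were tested, 1 rose and 3 fell, beside 9.56% and 9.88% of all genes. Vimentin, Vim, the filament of mesenchymal cells, gave 8.98, 10.53, 10.24 and 8.92 untreated and 8.34, 8.45, 7.81 and 8.39 with TGF-beta. Untreated replicates 2 and 3 stood above the rest, and the groups did not overlap (log2 difference -1.42, SE 0.36, adjusted p = 0.021). Within sets it was -0.58 in replicates 1 and 4 (adjusted p = 0.10) and -2.25 in replicates 2 and 3, a difference that did not pass (interaction, adjusted p = 0.12). Its call was lost on leaving out untreated replicate 3 (adjusted p = 0.057) or TGF-beta replicate 3 (0.062), and without a filter (0.068).

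The nuclear lamins went both ways. All 6 probes of Lmna, which encodes lamins A and C, rose, by 0.98 to 1.71, and the probe with the highest mean had overlapping groups (+0.98, SE 0.27, adjusted p = 0.032). That probe lost its call on leaving out any single sample other than untreated replicate 4 and TGF-beta replicate 3 (adjusted p between 0.050 and 0.087), without a filter (0.090) and under median scaling (0.057). The other Lmna probes passed in the main fit (adjusted p between 0.0014 and 0.0089 in limma), with groups that did not overlap. The B-type lamins Lmnb1 (-0.55, SE 0.14, adjusted p = 0.022) and Lmnb2 (-0.73, SE 0.18, adjusted p = 0.019) fell. Lmnb1 lost its call on leaving out untreated replicate 1 (adjusted p = 0.065), untreated replicate 3 (0.054) or TGF-beta replicate 4 (0.057). It also lost it within either set in the joint fit (0.051 and 0.10) and under median scaling (0.054). Lmnb2 lost its call on leaving out untreated replicate 2 or 3 (0.057 each) or TGF-beta replicate 3 or 4 (0.053 each). Within replicates 1 and 4 in the joint fit it was lost too (0.11).

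**Figure D3:**
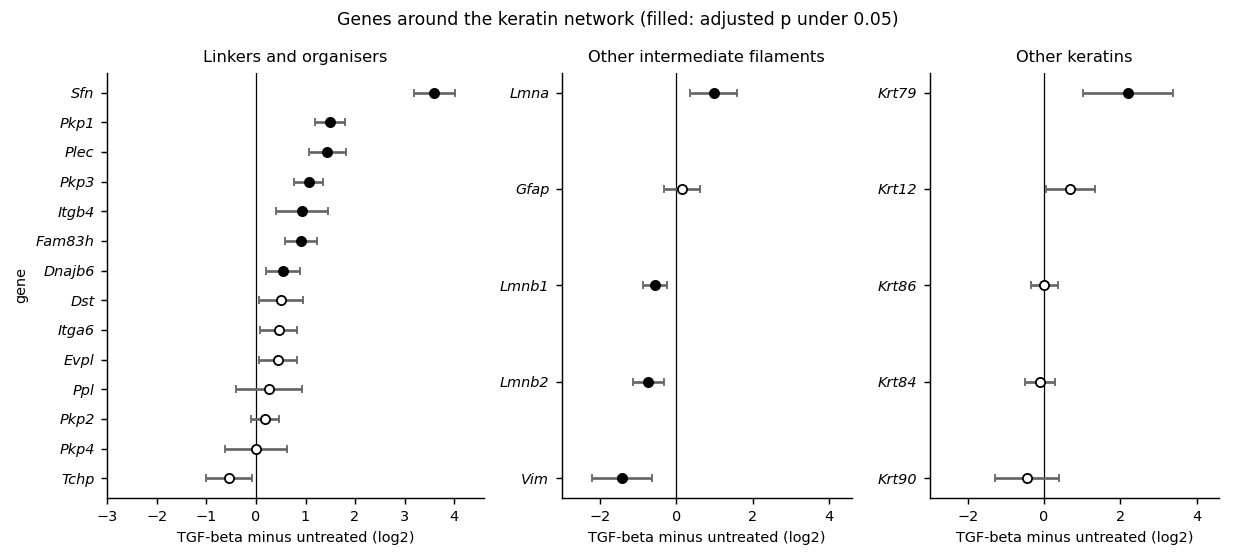
Log2 difference of TGF-beta minus untreated with its 95% interval for the tested genes of 3 lists, linkers and organisers of keratin, other intermediate filament genes, and other keratins. Filled circles passed at an adjusted p under 0.05. Sfn lies farthest to the right at 3.60 and Vim farthest to the left at -1.42.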

How the data were processed

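Total RNA of 8 organoid samples was labelled with biotin and hybridised to Illumina mouse bead arrays, per the labels' protocols. Per the file headers, the table the authors deposited gives non-normalized signal intensities with their detection p-values, for 45281 probes. The authors' other deposited table holds log2 values whose making is not stated. Its values show quantile normalization, with a median of 7.1 in every column and a correlation of 0.998 or more with its own array. All value columns were used (0 left over). The number of arrays limits the precision.

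Intensities were background corrected (normexp, from the detection p-values, offset 16), quantile normalized and taken to log2, and probes detected on at least 4 arrays, 15573 in all, were fitted by group (limma 3.58.1, R 4.3.3, lmFit and eBayes, two-sided, Benjamini-Hochberg). A gene is its tested probe with the highest mean, 9062 genes. Symbols came from the platform annotation, which gives 34885 probes a single symbol and 18 several and does not list 10378. A RefSeq gene table of GRCm38 changed 0 of them. Fold changes of low probes depend on the offset.

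The members, the lists (linkers, other intermediate filaments, other keratins, cell type markers) and the rules for named genes were chosen with earlier results of these data known. Named are all members, list members past the threshold, and the 3 genes nearest to each keratin that rose. Genes named although they missed the threshold were picked after their values were seen.

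Across probes, samples that share a number deviated together from their groups (r = 0.534, 0.513, 0.515 and 0.555), and 8 of 8 arrays were closest to their own number. The numbers were therefore read as pairs in the figures and the within-pair values. The main fit by group does not use them, so its SEs include the differences between pairs. The replicate block does use them. The labels tie the numbers to nothing. The alternatives were no background correction, median scaling, cyclic loess, the authors' table, 2 other detection filters, replicate and set blocks, the effect within each set, leaving out each sample, trended and robust variances, and averaged probes. Effects within a set, with their SEs and p-values, came from a joint fit of both sets on all 8 arrays with a shared variance. No set was fitted by itself. In simulated data for TGF-beta against untreated (15573 probes, 200 changed), the test found 0% of log2 changes sized 0.5, 67.2% of those sized 1 and 92.4% of those sized 2, and made 5 false calls. Python 3.11.15 with matplotlib 3.10.9 drew the figures.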

Additional observations from a re-analysis of the deposited data

Results flagged for a closer look

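Krt10 in untreated samples had 1 value far from the others. Replicate 4 gave 7.29, beside 7.03, 7.03 and 7.05, and the gap to the nearest of the others was 0.913 of the group's range. This was 1 of 20 groups tested (10 genes in 2 groups), where chance gives about 1 in 20.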

How the results depend on the processing

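The rises of Krt8, Krt7, Krt18, Krt19 and Krt20 passed under all 20 alternatives, with log2 differences of 1.16 to 1.38, 1.53 to 1.99, 1.02 to 1.26, 1.52 to 1.80 and 2.92 to 4.51. Krt14 passed under 16 of 19, and the stricter detection filter left it, Krt17 and Krt4 out. The count of keratins that rose was 6 without each of the 8 samples in turn. Krt23 and Krt10 passed under 0 of 20. The replicate block brought the keratins that fell to 1, Krt4, as did the block by set and the effect within replicates 2 and 3. Of the other 9 members it changed no call. With it 1302 genes rose and 1571 fell (2100 and 2452 probes), against 866 and 895 without it (1367 and 1379 probes), and with the block by set 1308 and 1582 (2110 and 2475 probes). Under the replicate block, the block by set and within replicates 2 and 3, 2 other keratins rose, Krt79 and Krt12. With no detection filter 0 did, and the stricter detection filter left both of them out. Under median scaling the median over all genes was -0.18 rather than -0.05, 495 genes rose (790 probes), and rises made up 34.5% of called genes against 49.2%. Under it Krt8 rose by 1.16 and Krt4 gave -1.19. With median scaling, or with no detection filter, 0 other intermediate filament genes rose, and within replicates 1 and 4 in the joint fit 0 fell. Leaving out 1 sample gave 573 to 805 genes lower and 867 to 1228 probes lower, with the fewest without untreated replicate 1, 0 to 1 other intermediate filament genes higher and 0 to 3 lower, and 0 to 1 linker genes lower. The cause of these changes was not tested. Low signals limit Krt14, Krt17 and Krt4, which lay near background on some arrays.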
